A study of Sus scrofa with 4 samples.

Results

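Interleukins are secreted messengers made mostly by leukocytes and barrier cells, and each acts through a receptor built from several subunits. One subunit usually binds the ligand and another, often shared between several interleukins, starts the signal in the cell, while decoy receptors and binding proteins take up ligand without signalling. In the lung, this network ties resident stromal and epithelial cells to the leukocytes around them. Described here are the genes whose name in the deposited count tables begins with IL and a digit, other than IL4, IL13 and the receptor genes IL4R, IL13RA1 and IL13RA2. The rule reads gene names only and gave 61 genes of 29263, but it was set with earlier results of these data known.

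Sorted lung cells of pigs were sequenced. The genotype, LGR5-H2B-GFP knock-in, places a fluorescent histone under the control of LGR5, the gene of an R-spondin receptor. Both groups carry this knock-in and were sorted by flow cytometry with exclusion of dead cells, 2 libraries as GFP-HI (bright cells) and 2 as GFP-NEG (cells without fluorescence). The labels number the libraries as biological replicates 1 and 2 in each group. Headings in the authors' comparison table name pig 1 and pig 2, but 2 of these 4 headings do not match the counts under them, so which libraries came from the same pig is not established here. Adult and fetal lung share 1 protocol, and the stage of these libraries is given as adult solely in the name of that table. Minced tissue was washed to remove blood before digestion, and the protocol names antibodies to EpCAM and NGFR for the sorts without giving the gates for these libraries. GFP-NEG is named for the absence of the reporter. Whether a gate on EpCAM or NGFR also applied is not known, so which other lung cell types it can hold is not established here.

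The GFP-HI libraries held 24200550 and 24689986 counts and the GFP-NEG libraries 6292253 and 7045652, so depth differed with the group. Counts of LGR5 were 3218 and 3073 in the GFP-HI libraries against 10 and 7. Summed over a list of 12 fibroblast markers, GFP-HI held 84940 to 88570 CPM (counts scaled to a fixed library total, with TMM scaling between libraries) and GFP-NEG 9519 to 26610. By the test described below, 9 of the 12 were higher, but COL1A1, COL1A2 and COL3A1, which make up most of these sums, were not called. The corresponding sums were 97.7 to 206 CPM against 834 to 1376 for 13 T and NK cell markers, 127 to 276 against 852 to 1402 for 10 B and plasma cell markers, and 166 to 185 against 797 to 1908 for the 5 neutrophil markers present. Of these, 12, 7 and 4 were lower. CD79A, at 77.8 and 159 CPM in GFP-HI against 107 and 252, was not called. Neither was the neutrophil marker S100A12, at 91.6 and 135 CPM against 423 and 95.1. For 12 macrophage and monocyte markers the sums were 533 to 609 against 839 to 2211, but only 5 of the 12 were lower by that test. For the 8 endothelial markers present they were 426 to 484 against 585 to 1567, with 6 of the 8 lower. The sums overlapped for the 11 epithelial markers present, at 367 to 371 against 221 to 831, with 3 lower. Among them EPCAM was at 2.04 and 1.64 CPM in GFP-HI against 5.59 and 3.84 in GFP-NEG and was not called. NGFR had 7 and 2 counts in GFP-HI against 6 and 0 in GFP-NEG and was not tested. The sums also overlapped for 8 smooth muscle and pericyte markers, at 1746 to 2452 against 385 to 2571, with 1 higher and 3 lower. Of the 5 mast cell and basophil markers present, 4 were lower, and GATA2, which other cell types also express, was higher. Of 6 markers of group 2 innate lymphoid cells, 4 were lower, and the erythroid gene HBB had 2 and 0 counts in GFP-HI against 66 and 48. No listed leukocyte marker was at 0 counts in both GFP-HI libraries, and PTPRC, the gene of the pan-leukocyte protein CD45, was at 45.9 and 121 CPM there against 687 and 1214 in GFP-NEG. The part of these markers in the differences given here was not tested. In bulk libraries such as these, fewer cells of a type and less RNA per cell cannot be told apart.

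Most interleukin and interleukin receptor transcripts were less abundant in GFP-HI than in GFP-NEG. The genes that rose in GFP-HI were IL1R1, the signalling receptor for interleukin 1, IL17RD, a receptor of the interleukin 17 family, and IL34, a ligand of the macrophage receptor CSF1R. Of the 61 members, 43 passed the filter on low counts and were tested and 18 did not pass it, among them IL9 and IL28B with 0 counts in all 4 libraries. By edgeR's quasi-likelihood test, with Benjamini-Hochberg adjustment over all 19682 genes tested and a threshold of 0.05, 26 members were lower, 3 were higher and 14 did not pass. Over all genes tested, 27.6% were called lower, 8.35% higher and 36.0% in either direction. Among the 13319 tested genes with a symbol, 15.2% were called lower and 11.3% higher, against 60.5% and 6.98% of the tested members. The median log2 fold change (GFP-HI against GFP-NEG) of the tested members was -2.08, and that of all genes tested was -0.25. Scaling by library totals alone moved these medians to -2.47 and -0.68 and left 3 members higher, with 888 of all genes higher and 5730 lower. The members that passed the filter include some that passed only through their GFP-NEG counts. These shares, and those by role and family below, therefore describe the tested members and support no further statement. With 1 library left out, the lower members numbered 14 without GFP-HI replicate 1, 17 without GFP-HI replicate 2 and 16 without GFP-NEG replicate 2. The higher members numbered 1 without GFP-HI replicate 1 and 0 without GFP-NEG replicate 2. The calls of 12 lower members held without each library in turn: IL10RA, IL12RB1, IL16, IL18RAP, IL1A, IL1R2, IL1RAP, IL1RL1, IL1RL2, IL21R, IL6R and IL7R.

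**Figure D1:**
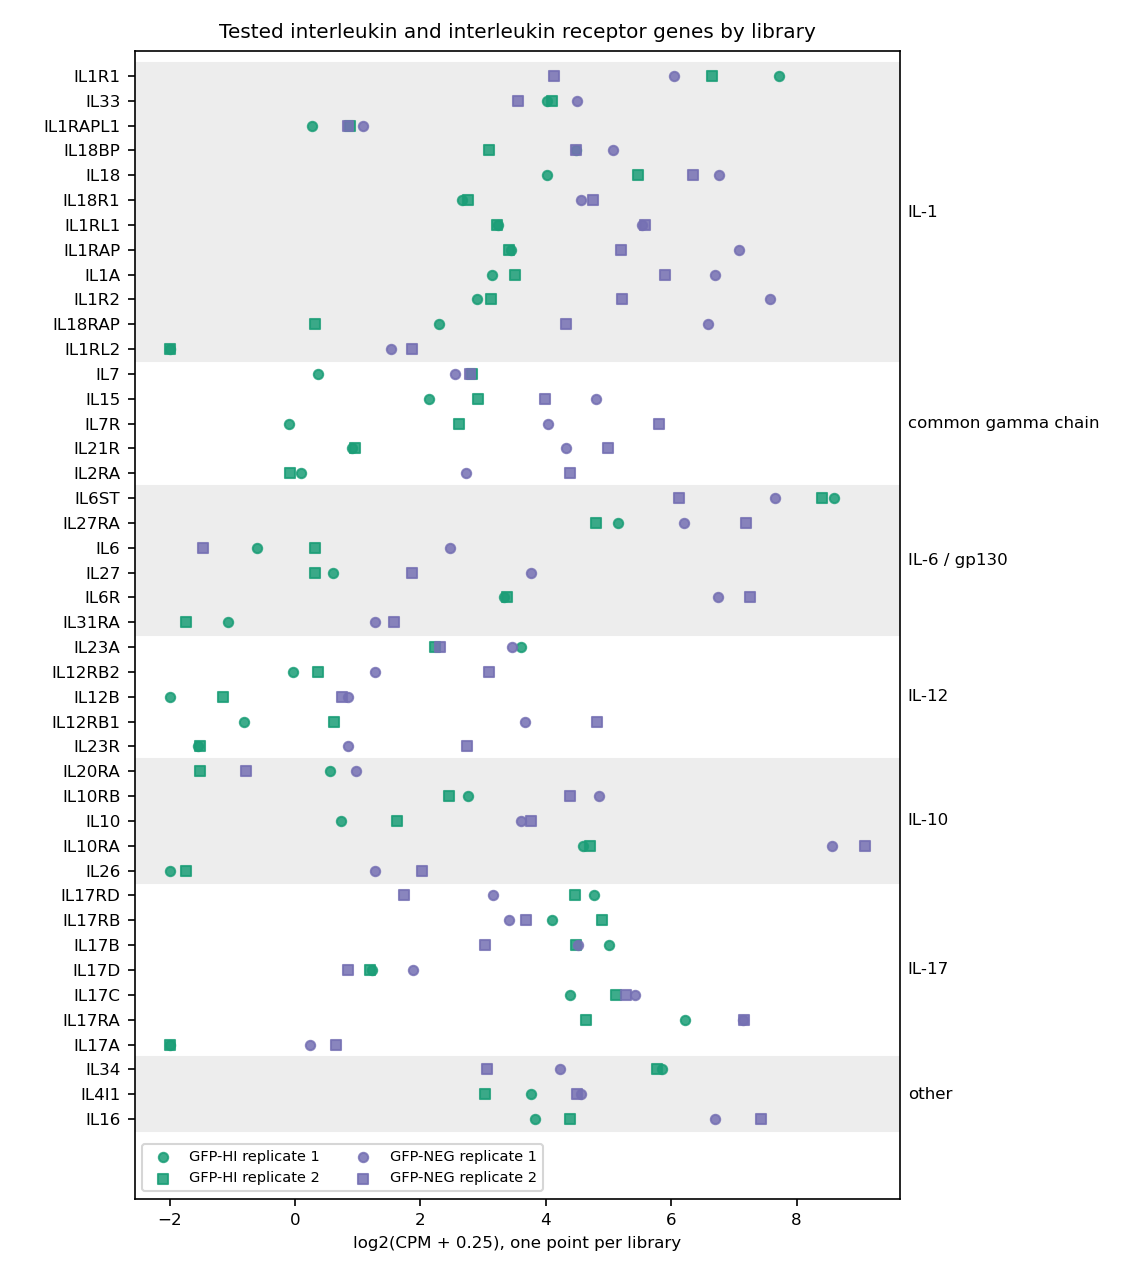
Level of each tested member in each library, as log2(CPM + 0.25) on the horizontal axis, with GFP-HI in green and GFP-NEG in purple, circles for replicate 1 and squares for replicate 2. In most rows the green points lie left of the purple points, and IL1R1, IL17RD, IL17RB, IL34 and IL6ST show the opposite order without overlap.

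The CPM ranges of the groups did not overlap for 29 tested members that were lower and 5 that were higher in GFP-HI. Among all genes tested, 42.0% lay apart in the lower direction and 27.7% in the higher, 69.7% together. Every one of the 29 called members was among those apart. By role, 16 of 23 tested receptor subunits were lower and 2 higher, and 9 of 17 tested ligands were lower and 1 higher. These were 69.6% and 52.9% lower, against 27.6% of all genes tested, and 8.7% and 5.88% higher, against 8.35%. The remaining 3 tested genes were the decoy receptor IL1R2, the binding protein IL18BP and the enzyme gene IL4I1. The plot of fold changes by family shows the whole set.

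**Figure D2:**
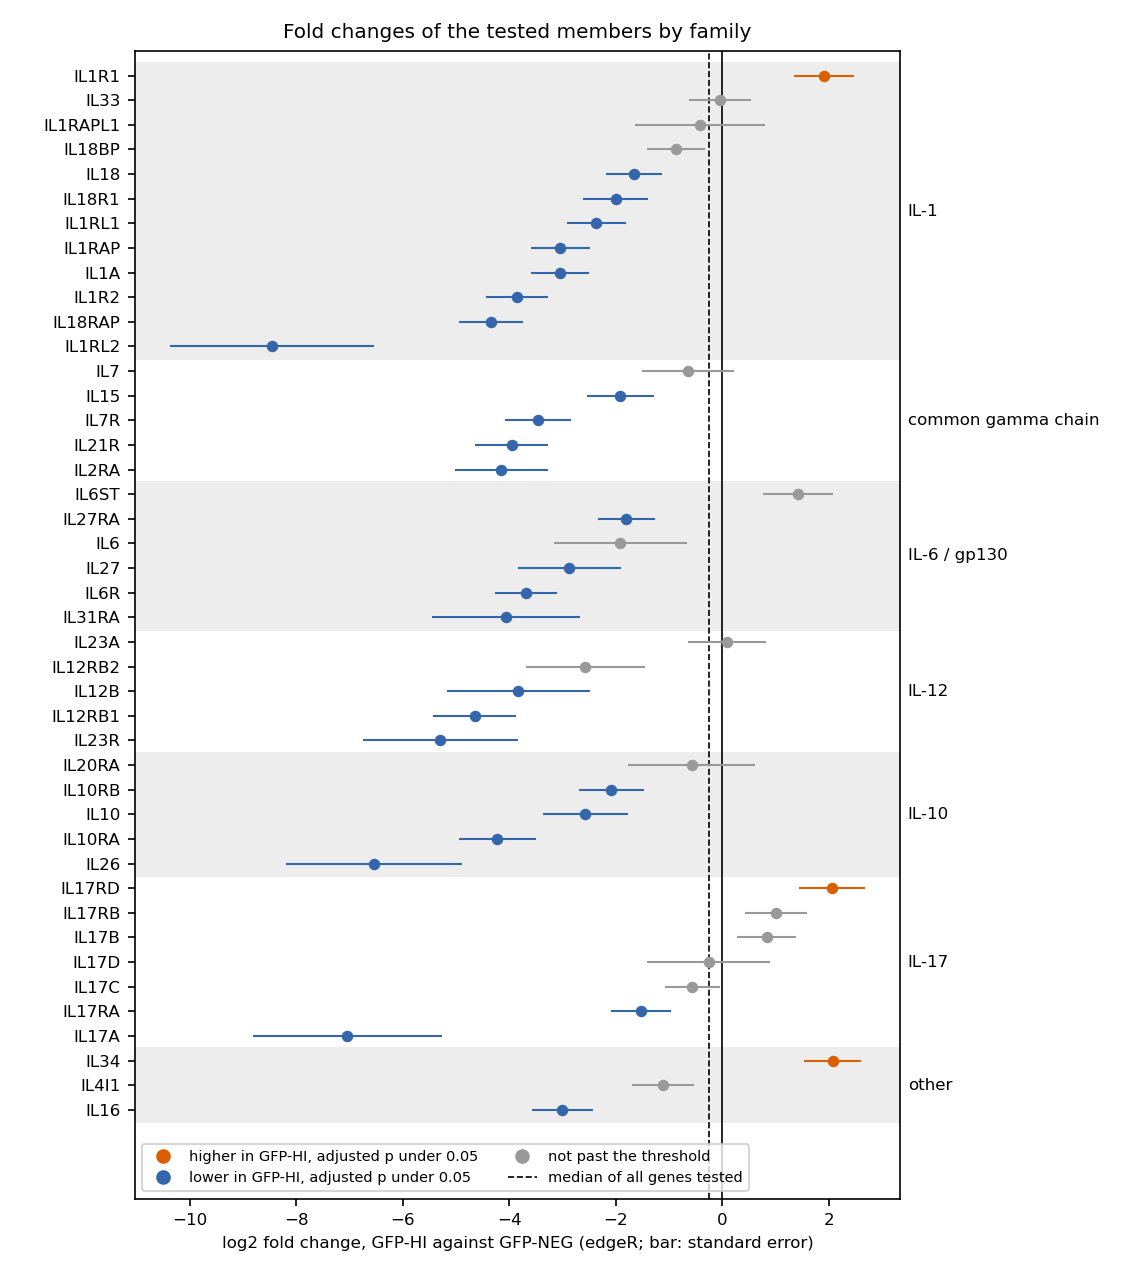
Log2 fold change of each tested member with a standard error derived from the F statistic of the fit, grouped by family. Calls are in colour and the median of all genes tested (-0.25) is a dashed line. The 3 called increases lie between 1.91 and 2.08, and IL1RL2 and IL17A, which had 0 counts in both GFP-HI libraries, have fitted values that depend on the prior count and are no measure of size.

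In the interleukin 1 family, 1 of 12 tested genes was higher, 8 were lower and 3 did not pass. The shares were 8.33% higher and 66.7% lower, against 8.35% and 27.6% of all genes tested. Interleukin 1 signals when IL1R1 binds it and recruits the accessory chain IL1RAP, while IL1R2 binds it without signalling. IL1R1 was at 211 and 100 CPM in GFP-HI and at 65.7 and 17.2 CPM in GFP-NEG. Both GFP-HI libraries were above both GFP-NEG libraries, the log2 fold change was 1.91 ± 0.57 (SE), and the adjusted p was 0.0034. IL1R2 was at 7.25 and 8.48 CPM in GFP-HI and at 190 and 37.1 CPM in GFP-NEG, and the log2 fold change was -3.85 ± 0.58 (SE; adjusted p = 5.5e-09). IL1RAP was at 10.6 and 10.4 CPM against 136 and 36.4 CPM, and it fell by 3.04 on the log2 scale (adjusted p = 1.8e-06). For both IL1R2 and IL1RAP, GFP-NEG replicate 1 held the higher value and the GFP-HI libraries lay close together.

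Among the ligands of this family, IL1A, the alpha form of interleukin 1, was at 8.61 and 11 CPM in GFP-HI and at 103 and 59.5 CPM in GFP-NEG (log2 fold change -3.05, adjusted p = 1.7e-06). IL33, an alarmin stored in the nuclei of stromal and barrier cells, was at 16.0 and 16.8 CPM in GFP-HI and at 22.4 and 11.5 CPM in GFP-NEG. The GFP-NEG values lay on either side of the GFP-HI values, and the log2 fold change of -0.04 ± 0.58 was within the spread between replicates (adjusted p = 0.97). Its receptor gene IL1RL1 (ST2) was at 9.15 and 9.07 CPM against 46.1 and 47.8 CPM, with replicates close together in both groups (log2 fold change -2.36, adjusted p = 0.00017). IL18, a ligand matured by inflammasomes, was at 16.0 and 44.1 CPM in GFP-HI and at 108 and 81.1 CPM in GFP-NEG (log2 fold change -1.65, adjusted p = 0.0073). Its receptor subunits moved the same way: IL18R1, which binds the ligand, was at 6.07 and 6.49 CPM against 23.4 and 26.9 CPM (log2 fold change -2.0, adjusted p = 0.0041). IL18RAP, the accessory subunit, was at 4.67 and 0.992 CPM against 96.3 and 19.7 CPM (log2 fold change -4.35, adjusted p = 1.9e-10). The binding protein IL18BP, which neutralizes interleukin 18, was at 22.2 and 8.28 CPM against 33.5 and 22.1 CPM, with the groups just overlapping and no call (log2 fold change -0.87, adjusted p = 0.23).

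The receptor for the interleukin 36 cytokines, IL1RL2, had 0 counts in both GFP-HI libraries and 17 and 31 counts in GFP-NEG. It was at least 17.7-fold lower in GFP-HI, from the lower GFP-NEG library against a floor of 3 counts per library, a limit that covers counting error only. Both of its GFP-NEG levels, 2.64 and 3.40 CPM, were under 4.89 CPM, the highest 95th percentile of odorant receptor genes in a library, a measure of low-level signal described with the low members. IL1RAPL1, a synaptic member of the receptor family, was at 0.951 to 1.59 CPM in GFP-HI and 1.53 to 1.86 CPM in GFP-NEG and was not called. IL1RAPL2 had 0 counts in GFP-HI against 3 and 10 in GFP-NEG and was not tested. In the RefSeq annotation of Sscrofa11.1, in which all 61 members matched by symbol, IL18RAP, IL18R1, IL1RL1, IL1RL2, IL1R1 and IL1R2 are consecutive protein-coding genes. Of these 6 neighbours, 5 were lower in GFP-HI and IL1R1 alone was higher. The strand setting of the counting is not given in the sources used here, so reads in any overlap between neighbours cannot be assigned.

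Leaving out single libraries changed several values in this family. IL1R1 was at 1.374 without GFP-HI replicate 1 (adjusted p = 0.15), 1.21 without GFP-NEG replicate 2 (0.47) and 3.23 without GFP-NEG replicate 1 (0.0029). Without GFP-NEG replicate 1, IL1R2 was at -2.19, IL1RAP at -1.74 and IL18RAP at -2.75, and all 3 were still called. IL18 was not called without GFP-HI replicate 1 (-0.97, adjusted p = 0.29), GFP-NEG replicate 1 (-1.38, 0.10) or GFP-NEG replicate 2 (-1.88, 0.054), and it was at -2.48 without GFP-HI replicate 2. IL18R1 was called only when GFP-NEG replicate 1 was the one left out (-2.04, adjusted p = 0.022), with values of -1.81 to -1.96 and adjusted p-values of 0.059 to 0.075 in the other 3 fits.

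Count ratios within a library do not depend on scaling between libraries. They were computed for pairs chosen after the values were seen, and gene length is not taken into account, so only the same ratio may be compared between libraries. The ratio of IL1R1 to IL1R2 counts was 29.1 and 11.8 in GFP-HI against 0.346 and 0.464 in GFP-NEG, a gap of 25.4-fold between the nearest libraries. IL1R1 to IL1RAP gave 19.9 and 9.67 against 0.483 and 0.473. The ratio of IL33 to IL1RL1 was 1.75 and 1.85 against 0.485 and 0.241. In each of these ratios both GFP-HI libraries were above both GFP-NEG libraries. Except for IL33 to IL1RL1, every pair given here and below sets a gene apart in the higher direction over one apart in the lower. The order of those ratios follows from the levels of the single genes and is no further support.

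**Figure D3:**
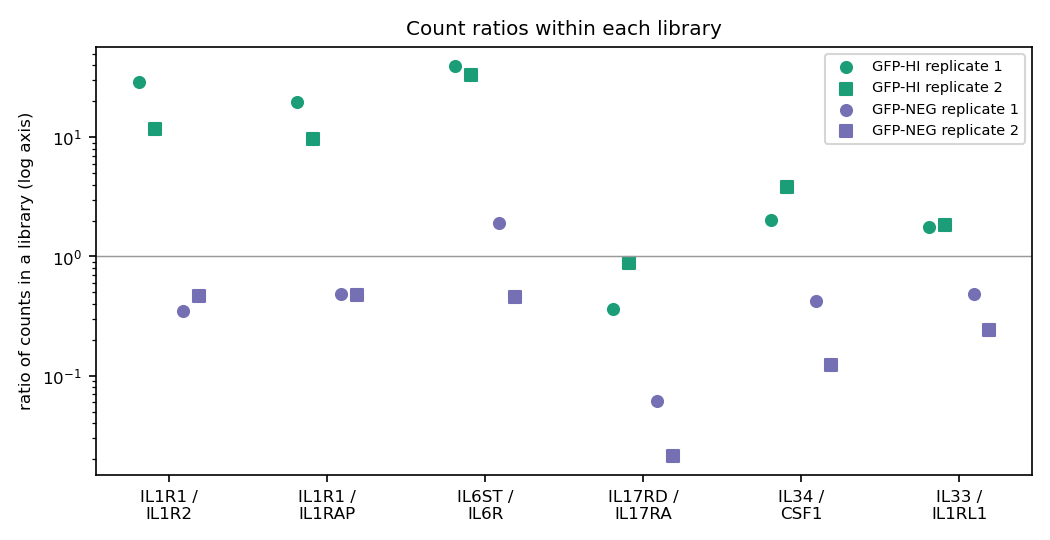
Ratio of the counts of 2 genes within each library, on a log axis, for 6 pairs, with GFP-HI in green and GFP-NEG in purple. In all 6 pairs both GFP-HI libraries lie above both GFP-NEG libraries, with the nearest libraries between 3.61-fold and 25.4-fold apart. Except for IL33 to IL1RL1, this order follows from the choice of a higher gene over a lower one.

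In the interleukin 6 family, 4 of 6 tested genes (66.7%, against 27.6% of all genes tested) were lower in GFP-HI. Among them was the receptor IL6R, and none passed as higher. IL6ST encodes gp130, the chain through which interleukins 6, 11 and 27 and several other cytokines signal, and IL6R binds interleukin 6. IL6ST was at 387 and 341 CPM in GFP-HI and at 201 and 69.6 CPM in GFP-NEG, with the groups apart. Its log2 fold change of 1.43 ± 0.65 (SE) did not pass (adjusted p = 0.075). IL6R was at 9.88 and 10.2 CPM in GFP-HI against 107 and 153 CPM in GFP-NEG, and the log2 fold change was -3.69 ± 0.58 (SE; adjusted p = 2.7e-08). The ratio of IL6ST to IL6R counts was 39.2 and 33.5 in GFP-HI against 1.89 and 0.457 in GFP-NEG. IL6 itself had 9 and 20 counts in GFP-HI against 34 and 1 in GFP-NEG. The GFP-NEG libraries lay on both sides of GFP-HI, and IL6 was not called (log2 fold change -1.91 ± 1.25, adjusted p = 0.24).

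The receptor of interleukin 11, a cytokine studied for its action on fibroblasts, is in the count tables under an Ensembl identifier that the gene name table pairs with IL11RA, so it is not one of the 61 members. IL11RA was at 143.5 and 145.9 CPM in GFP-HI and at 64.3 and 18.8 CPM in GFP-NEG, and it rose by 1.80 ± 0.56 (SE) on the log2 scale (adjusted p = 0.0054). IL11 had 3 and 0 counts in GFP-HI against 3 and 0 in GFP-NEG and was not tested. IL27RA, which pairs with gp130 for interleukin 27, was at 35.5 and 27.6 CPM against 73.1 and 146 CPM (log2 fold change -1.80, adjusted p = 0.0037). IL27, made by antigen-presenting cells, had 28 and 20 counts against 86 and 31 (log2 fold change -2.87, adjusted p = 0.011). IL31RA, a receptor of a cytokine linked to itch, had 5 and 1 counts against 14 and 25 and was called lower (adjusted p = 0.012). In the RefSeq annotation of Sscrofa11.1, IL31RA and IL6ST are neighbouring genes.

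The positive values of this family moved most with the GFP-NEG libraries. Without GFP-NEG replicate 1, IL6ST was at 2.44 (adjusted p = 0.037) and IL11RA at 3.00 (0.0047), while leaving out GFP-NEG replicate 2 gave 0.82 (0.72) and 1.13 (0.51). IL11RA was also not called without GFP-HI replicate 1 (1.92, 0.056) or 2 (1.84, 0.075). IL27RA kept its call only without GFP-NEG replicate 1 (-2.16, 0.0098), with -1.82, -1.51 and -1.25 in the other 3 fits. IL27 kept its call only without GFP-NEG replicate 2 (-3.59, 0.0014), with -2.96 and -2.66 without GFP-HI replicates 1 and 2 and -1.53 without GFP-NEG replicate 1. IL31RA lost its call in each of the 4 fits, at values of -3.29 to -5.23. The value of IL6 was 2.64 without GFP-NEG replicate 1, and IL6R stayed between -3.45 and -3.88.

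**Figure D4:**
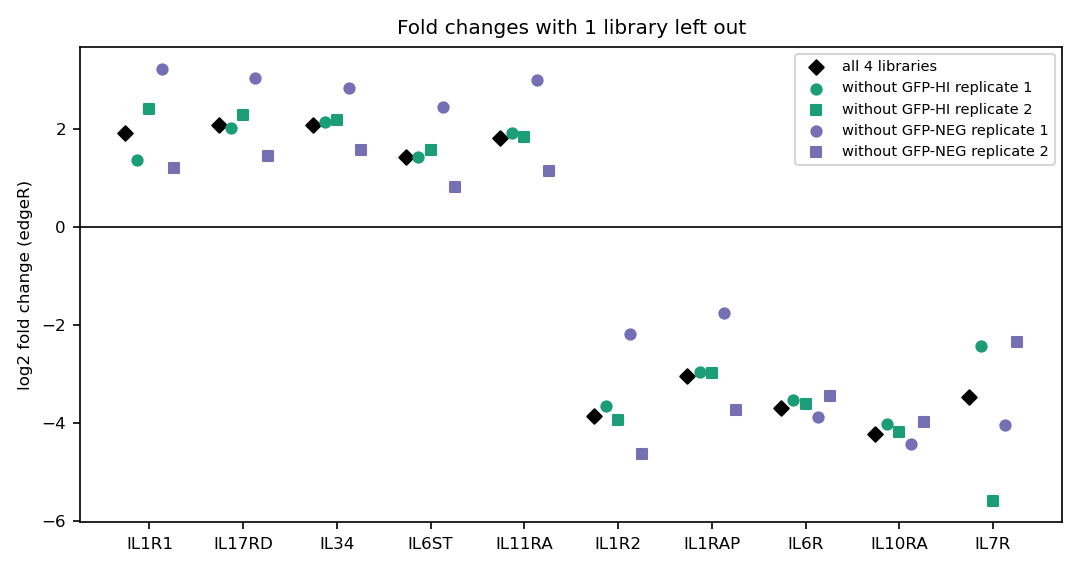
Log2 fold change of 10 genes with all 4 libraries (black) and with 1 library left out (green: a GFP-HI library, purple: a GFP-NEG library). For IL1R1, IL17RD, IL34, IL6ST and IL11RA every value is above 0 and the highest is the one without GFP-NEG replicate 1, and for IL1R2, IL1RAP, IL6R, IL10RA and IL7R every value is below 0.

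Receptors of lymphocyte growth cytokines were lower in GFP-HI. These cytokines, interleukins 2, 7, 9, 15 and 21, share the common gamma chain, and their receptors mark T, NK and other lymphoid cells. IL7R, the receptor chain for interleukin 7, was at 0.680 and 5.90 CPM in GFP-HI and at 16.2 and 55.9 CPM in GFP-NEG (log2 fold change -3.46 ± 0.62, adjusted p = 1.0e-06). IL21R was at 1.63 and 1.69 CPM against 19.7 and 31.7 CPM (log2 fold change -3.95, adjusted p = 5.2e-07). IL2RA, the high-affinity chain for interleukin 2, had 18 and 14 counts in GFP-HI against 41 and 188 in GFP-NEG (log2 fold change -4.15, adjusted p = 4.2e-05). IL15, presented to NK and T cells by stromal and myeloid cells, was at 4.12 and 7.29 CPM against 27.5 and 15.6 CPM (log2 fold change -1.91, adjusted p = 0.0086). IL7, a stromal survival factor for lymphocytes, was at 1.04 and 6.84 CPM in GFP-HI and at 5.59 and 6.69 CPM in GFP-NEG. GFP-HI replicate 2 was thus level with GFP-NEG while replicate 1 was below it, and IL7 was not called (log2 fold change -0.64, adjusted p = 0.61).

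The remaining chains of this group, also carried under identifiers that the gene name table pairs with symbols, gave the same direction. IL2RG, the common gamma chain, was at 35.6 and 75.2 CPM in GFP-HI and at 454 and 435 CPM in GFP-NEG (log2 fold change -3.0 ± 0.69, adjusted p = 0.00015). IL2RB was at 4.80 and 7.44 CPM against 58.8 and 162 CPM (log2 fold change -4.17, adjusted p = 3.7e-10), and IL9R had 8 and 9 counts against 31 and 78 (log2 fold change -4.02, adjusted p = 0.0023). IL2 and IL21 had 0 counts in GFP-HI and at most 4 in a GFP-NEG library. IL15 was not called without GFP-HI replicate 1 (-1.44, adjusted p = 0.15) or GFP-NEG replicate 1 (-1.40, 0.17). IL2RA was at -3.10 (0.051) and IL9R at -3.59 (0.064) without GFP-NEG replicate 2. IL7R was at -5.58 without GFP-HI replicate 2 and was called in all 4 such fits.

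The interleukin 10 receptor genes fell together with their ligand. Interleukin 10 restrains inflammation through IL10RA, which is largely restricted to leukocytes, and IL10RB, which many cell types express and several cytokines share. IL10RA was at 23.8 and 25.8 CPM in GFP-HI and at 378 and 547 CPM in GFP-NEG, and the log2 fold change was -4.22 ± 0.73 (SE; adjusted p = 4.1e-07). IL10RB was at 6.48 and 5.21 CPM against 28.7 and 20.7 CPM (log2 fold change -2.08, adjusted p = 0.0031). IL10 had 31 and 57 counts in GFP-HI against 77 and 121 in the shallower GFP-NEG libraries (log2 fold change -2.57, adjusted p = 0.0051). IL20RA, with 27 and 2 counts against 11 and 3, was not called. IL26 had 0 and 1 counts in GFP-HI against 14 and 35 in GFP-NEG and was called lower (adjusted p = 0.00047). IL10RB lost its call without GFP-HI replicate 1 (-2.12, 0.051), GFP-HI replicate 2 (-1.85, 0.073) or GFP-NEG replicate 1 (-1.77, 0.057), IL10 without GFP-HI replicate 1 (-2.01, 0.092), and IL26 without GFP-HI replicate 1 (adjusted p = 0.059) or GFP-NEG replicate 2 (0.060).

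In the interleukin 12 and 23 family, 3 of 5 tested genes were lower, namely IL12RB1, IL23R and IL12B. This was 60%, against 27.6% of all genes tested. IL12RB1 had 7 and 26 counts in GFP-HI, and all 3 genes passed the filter on low counts only through GFP-NEG. The share therefore supports no further statement. IL12RB1, the chain shared by both receptors, was at 0.317 and 1.29 CPM in GFP-HI and at 12.4 and 27.95 CPM in GFP-NEG (log2 fold change -4.65 ± 0.78, adjusted p = 1.9e-07). IL23R had 2 and 2 counts against 10 and 59 and was called lower (adjusted p = 0.0013). IL12RB2 had 16 and 21 counts against 14 and 76, with a log2 fold change of -2.57 that did not pass (adjusted p = 0.059) and that passed without GFP-NEG replicate 1 (-3.18, 0.023). IL23A, the subunit specific to interleukin 23, was at 11.9 and 4.46 CPM in GFP-HI and at 10.7 and 4.71 CPM in GFP-NEG. Here replicate 1 was the higher library in each group, and the groups overlapped (log2 fold change 0.09 ± 0.73, adjusted p = 0.94). IL12B, the subunit that both cytokines share, had 0 and 4 counts against 10 and 13 and was called lower (adjusted p = 0.016), but not without any 1 of GFP-HI replicate 1 (0.33), GFP-HI replicate 2 (0.097) or GFP-NEG replicate 1 (0.30), and it was not tested without GFP-NEG replicate 2. IL23R was at -5.03 (0.054) without GFP-HI replicate 1 and at -5.20 (0.053) without GFP-HI replicate 2, and was not tested without GFP-NEG replicate 2.

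In the interleukin 17 family, 1 of 7 tested genes was higher, 2 were lower and 4 did not pass the threshold, with a median log2 fold change of -0.26. The share lower, 28.6%, was near the 27.6% of all genes tested and above the 15.2% of tested genes with a symbol. It rests on 2 genes, of which IL17A passed the filter only through GFP-NEG. The share higher was 14.3%, against 8.35% of all genes tested and 11.3% of those with a symbol. The median of all genes tested was -0.25. IL17RA is the receptor chain that most of these cytokines share, IL17RB pairs with it for interleukins 17B and 25, and IL17RD (SEF) is a related membrane protein also known to restrain FGF signalling. IL17RD was at 27.1 and 21.8 CPM in GFP-HI and at 8.70 and 3.07 CPM in GFP-NEG, with the groups apart, and rose by 2.07 ± 0.62 (SE) on the log2 scale (adjusted p = 0.0037). IL17RA was at 74.4 and 24.7 CPM in GFP-HI and at 141 and 143 CPM in GFP-NEG, and fell by 1.52 ± 0.56 (adjusted p = 0.021). The GFP-NEG values nearly coincided, while the GFP-HI replicates differed. IL17RB was at 16.9 and 29.7 CPM against 10.4 and 12.6 CPM. Its groups were apart but the log2 fold change of 1.02 ± 0.58 did not pass (adjusted p = 0.17). The ratio of IL17RD to IL17RA counts was 0.365 and 0.880 in GFP-HI against 0.0615 and 0.0214 in GFP-NEG.

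Of the interleukin 17 ligands, IL17B was at 31.9 and 22.2 CPM in GFP-HI and at 22.5 and 7.89 CPM in GFP-NEG, so that the groups overlapped (log2 fold change 0.84, adjusted p = 0.25). IL17C, an epithelial cytokine, was at 20.6 and 34.5 CPM against 42.9 and 38.6 CPM (log2 fold change -0.56, adjusted p = 0.42). IL17D, at 2.08 and 2.03 CPM against 3.42 and 1.54 CPM, was not called either. IL17A, the cytokine of type 17 lymphocytes, had 0 counts in both GFP-HI libraries and 6 and 12 in GFP-NEG, at least 6.26-fold lower by the same floor (adjusted p = 0.00044 for the fit), and its GFP-NEG levels were also under that odorant receptor level. IL17F had 0 counts in 3 libraries and 6 in GFP-NEG replicate 2, and IL25 had 3 to 8 counts per library. IL17RD was at 1.45 (adjusted p = 0.30) without GFP-NEG replicate 2 and at 2.01 (0.062) without GFP-HI replicate 1. IL17RA kept its call only without GFP-HI replicate 1 (-2.38, 0.033), at -0.85 without GFP-HI replicate 2, -1.48 without GFP-NEG replicate 1 and -1.55 without GFP-NEG replicate 2. IL17A had adjusted p-values of 0.13 and 0.14 without GFP-HI replicates 1 and 2 and was not tested in the other 2 fits.

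Outside these families, IL34 and IL16 moved in opposite directions. IL34, which shares the receptor CSF1R with CSF1 and supports macrophages, was at 57.5 and 54.2 CPM in GFP-HI and at 18.5 and 8.11 CPM in GFP-NEG, and the log2 fold change was 2.08 ± 0.54 (SE; adjusted p = 0.00064). CSF1 was at 28.3 and 14.2 CPM against 43.9 and 65.8 CPM (log2 fold change -1.4, adjusted p = 0.027), and CSF1R was at 50.2 and 17.0 CPM against 238 and 330 CPM (log2 fold change -3.08, adjusted p = 3.5e-05). The ratio of IL34 to CSF1 counts was 2.04 and 3.83 in GFP-HI against 0.420 and 0.123 in GFP-NEG. IL16, a lymphocyte chemoattractant that acts through CD4, was at 13.9 and 20.6 CPM against 104 and 173 CPM (log2 fold change -3.0, adjusted p = 5.6e-06). IL4I1, an amino acid oxidase gene named for its induction by interleukin 4, was at 13.3 and 7.93 CPM against 23.4 and 22.4 CPM and was not called (log2 fold change -1.11, adjusted p = 0.13). Without GFP-NEG replicate 2, IL34 was at 1.56 (adjusted p = 0.23), and CSF1 was not called in any of the 4 fits with 1 library left out (-0.85 to -1.80). CSF1R was not called without GFP-HI replicate 2 (-2.40, adjusted p = 0.058).

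**Figure D5:**
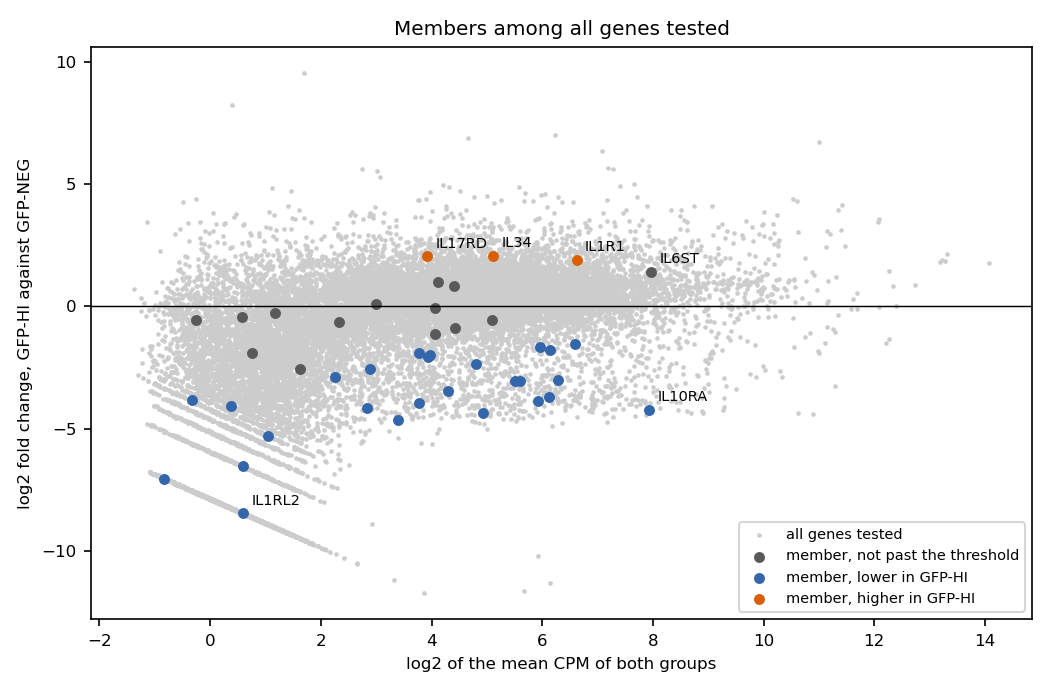
Log2 fold change against the log2 of the mean CPM of both groups, for all 19682 genes tested (grey) and the 43 tested members (coloured by call). The lower members reach from low to high levels, with IL10RA among the most abundant of them, and the lines of grey points at the lower left are genes with few or no counts in GFP-HI.

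Of the 26 lower members, 19 had at least 10 counts in both GFP-HI libraries, and their fitted decreases ranged from 2.87-fold (IL17RA) to 20.4-fold (IL18RAP). The other 7 (IL12B, IL12RB1, IL17A, IL1RL2, IL23R, IL26 and IL31RA) had fewer in at least 1 GFP-HI library. None of the 18 untested members exceeded 18 counts in any library. They include IL22 (15 counts in GFP-NEG replicate 2, 0 elsewhere), IL22RA1 (2 and 18 in GFP-NEG, 0 in GFP-HI), IL22RA2 (17 and 1 in GFP-NEG, 3 and 0 in GFP-HI), IL5 (5 and 3 in GFP-HI, 0 and 18 in GFP-NEG) and IL5RA (6 and 2 in GFP-NEG, 0 in GFP-HI). IL12A, IL19, IL20, IL24 and IL29 had at most 9 counts in a library. IL22RA1 was called lower without the filter, by DESeq2 and without GFP-NEG replicate 1. As a measure of low-level signal, odorant receptor genes, which belong to the nose, were counted. Of these genes, 5 and 2 had at least 1 count in GFP-HI and 57 and 91 had one in GFP-NEG. Their 95th percentile was 1.4 and 4.89 CPM in the GFP-NEG libraries, and 5 of the 26 lower members (IL12B, IL17A, IL1RL2, IL26 and IL31RA) were under 4.89 CPM in both GFP-NEG libraries, as were all 18 untested members. Over all genes, 18752 and 18392 had at least 1 count in GFP-HI and 24120 and 25985 had one in GFP-NEG. The part of this low-level signal in those values, in the other lower calls and in the share of all genes called lower was not tested.

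Genes that act with the interleukins, and whose names the rule does not match, were read from a list of 51, of which 47 were in the tables and 46 were tested. Of these, 3 were higher, 20 lower and 23 not past the threshold, with a median log2 fold change of -0.95. The shares were 6.52% higher and 43.5% lower, against 8.35% and 27.6% of all genes tested, whose median was -0.25. Among the higher genes, TRAF3IP2 (Act1), the adaptor of interleukin 17 receptors, was at 99.8 and 77.5 CPM in GFP-HI and at 33.4 and 10.7 CPM in GFP-NEG (log2 fold change 2.01, adjusted p = 0.00092). It was at 1.371 without GFP-NEG replicate 2 (adjusted p = 0.33) and at 3.10 without GFP-NEG replicate 1. OSMR, which joins gp130 to bind oncostatin M, was at 84.1 and 26.3 CPM against 35.6 and 3.95 CPM, so that the groups overlapped although it was called (log2 fold change 1.49, adjusted p = 0.016). OSMR reached 3.85 without GFP-NEG replicate 1, and it was not called without GFP-HI replicate 1 (0.50), GFP-HI replicate 2 (2.13) or GFP-NEG replicate 2 (0.60).

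The oncostatin M gene OSM itself was lower, at 31.2 and 50.5 CPM against 138 and 187 CPM (log2 fold change -1.99, adjusted p = 0.0023). LIFR, another partner of gp130, was at 9.79 and 7.14 CPM against 15.1 and 3.07 CPM and was not called (log2 fold change -0.09, adjusted p = 0.94). Among the kinases and transcription factors below the receptors, JAK1 was at 336 and 282 CPM against 262 and 327 CPM (log2 fold change 0.07, adjusted p = 0.95), and STAT3 and STAT6 were not called. JAK3, which serves the common gamma chain, was at 11.05 and 9.17 CPM against 130 and 160 CPM (log2 fold change -3.84, adjusted p = 1.4e-08), and STAT4, which acts below the interleukin 12 receptor, had a log2 fold change of -3.596. CSF2RB, the chain shared by interleukins 3 and 5 and GM-CSF, was at -3.63, and CXCL8, the gene of interleukin 8, was at 15.3 and 24.6 CPM against 339 and 175 CPM (log2 fold change -3.69, adjusted p = 5.9e-07). The inflammasome genes NLRP3, CASP1 and PYCARD were lower, with log2 values of -3.59, -2.65 and -2.49. The feedback genes NFKBIA, NFKBIZ and TNFAIP3, which inflammatory signals induce, were lower too, at -3.25, -2.83 and -1.51. Other called genes of the list were the adaptor MYD88 (-1.63), the kinases IRAK2 (-3.25) and JAK2 (-1.38), the inhibitors PTPN6 (-3.92), SIGIRR (-2.30) and CISH (-1.64), and EBI3 (-3.24), a secreted subunit of interleukin 27, all lower.

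Without single libraries, the calls of JAK3, STAT4, CSF2RB, CXCL8, NLRP3, CASP1, PTPN6, IRAK2 and EBI3 held in all 4 fits. TNFAIP3 lost its call in all 4, at -1.19 to -1.78, as did MYD88 at -1.20 to -1.98 and JAK2 at -0.69 to -1.87. OSM kept its call only without GFP-NEG replicate 1 (-2.15), and CISH only without GFP-NEG replicate 2 (-2.02). SIGIRR was not called without GFP-NEG replicate 2 (-1.94, adjusted p = 0.055). PYCARD was not called without GFP-HI replicate 1 (-1.60, adjusted p = 0.094). NFKBIA and NFKBIZ were not called without GFP-HI replicate 2 (-2.78 and -2.26). Without GFP-HI replicate 2, PYCARD was at -3.92.

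The authors' deposited table of the comparison lists 37 of the 61 members. At an adjusted p-value under 0.05 in the authors' deposited table, 4 of these were higher and 21 lower in GFP-positive cells. Of these 25, 23 were called here in the same direction and 0 in the opposite one. Both sets of calls rest on the same counts, so this is no independent check. A further 6 members called lower here are not listed there. For IL6ST, log2 1.43 with adjusted p = 0.047 stands in the authors' deposited table, and for IL12RB2 -2.60 with 0.049. These are the members called there and not here.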

How the data were processed

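The authors deposited 1 table of raw counts per gene for each of the 4 bulk RNA-seq libraries, made with a Nextera XT kit per the labels' protocols. The submitters' processing notes name featureCounts, Subread 1.5.2 and DESeq2 1.37.6, with no role. The aligner, genome build and strand setting are not given in the sources used here. The authors' deposited comparison table gives a log2 fold change and an adjusted p-value per gene, and its 4 normalized per-sample columns were not used, because 2 headings do not match the counts they carry.

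Counts were tested with edgeR 4.0.16 (R 4.3.3) by the quasi-likelihood test with the group as the only term, after filterByExpr and TMM scaling, with Benjamini-Hochberg adjustment over 19682 genes and a threshold of 0.05. Standard errors were obtained as the size of the log2 fold change divided by the square root of the test's F statistic. The estimated prior degrees of freedom were infinite, so a gene's own scatter carried little or no weight in its standard error. The standard errors and adjusted p-values therefore do not measure the spread between that gene's own replicates. For naming, the gene name table gave a symbol for 844 Ensembl identifiers, and 834 were renamed. A count of 1 was worth 0.0453 to 0.0496 CPM in GFP-HI and 0.110 to 0.155 CPM in GFP-NEG, and the figures use log2(CPM + 0.25). Levels are not scaled by gene length and were not compared between genes. The fit was tested on simulated data, where it missed most of the changed genes, so a gene without a call is not shown to be unchanged.

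Members, lists and pairs of genes were chosen with earlier results of these data known. Values are given for the 15 called members with the highest mean CPM in each direction, for members not called with a mean of at least 10 CPM in a group, for a list of genes whatever their result, and for called pathway genes with a mean of at least 10 CPM. IL1B, IL1RN and TSLP were not analysed here. The values of 1 gene of the pathway list are not reported here. The replicate number was taken from the titles, and the sources used here do not establish that it pairs libraries. Alternatives were other scalings, other filters, DESeq2 1.42.0, the replicate block, thinning of GFP-HI to the depth of GFP-NEG, and leaving out each library.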

Additional observations from a re-analysis of the deposited data

How the results depend on the processing

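With 2 libraries per group the calls rest on few samples, and DESeq2, RLE scaling, library totals, both filters and thinning left 3 to 4 members higher and 25 to 28 lower. The libraries share replicate numbers, but pairing is not established. Across 19682 genes, the deviations of the replicates from their group means had a Pearson r of 0.16 between the groups. With the replicate block, 4 members were higher and 24 lower. IL12B (adjusted p of 0.11) and IL31RA (0.053) then lost their calls and IL6ST (0.045) gained one, and no other member's call changed with this pairing. DESeq2 with the block gave 4 and 21. Over the 4 fits with 1 library left out, 0 to 4 members were higher and 14 to 20 lower, their median log2 fold change ran from -2.65 to -1.77, and the pathway list had 1 to 3 higher and 11 to 15 lower. All genes gave 216 to 1635 higher and 1575 to 4999 lower in those fits, against 1643 and 5433 with all libraries. All genes higher numbered 888 with library totals alone, and all genes lower 3194 with DESeq2 and the replicate block and 3562 after thinning. The cause was not tested.

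No called member changed sign in 342 alternative values, and 49 of these no longer passed. The signs that turned belong to genes without a call and to the median of all genes, which ran from -0.587 to 0.032 with 1 library left out. In those fits IL33 ran from -0.485 to 0.561, LIFR from -0.869 to 1.512, IL23A from -0.668 to 0.848, IL6 from -2.944 to 2.642, IL17D from -0.766 to 0.472, IL20RA from -3.109 to 1.046, IL7 from -2.453 to 0.303 and IL1RAPL1 from -0.742 to 0.042. IL33 was at 0.005 without a filter, 0.029 with the replicate block and 0.022 with DESeq2 and the block. LIFR was at 0.263 with the block and 0.277 with DESeq2 and the block, and IL23A at -0.239 with library totals.

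The remaining alternatives were chosen after seeing the data. Adding the 4 receptor genes under identifiers gave 4 higher and 29 lower, with a median of -2.36. Keeping only the 35 tested members above the odorant receptor level gave 3 higher and 21 lower, with a median of -2.0. The filter on low counts left out 18 members. Without it 59 members had a test and with DESeq2 54, and IL22RA1 was then called lower in both.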
